A study of Rattus norvegicus with 18 samples.

Results

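The miR-130 and miR-301 family was followed in small RNA libraries from rat heart. Its members were all listed rows named for miR-130a, miR-130b, miR-301a or miR-301b, whichever arm of the hairpin they came from. They numbered 8 of the 599 miRNAs listed, a 3p and a 5p row for each of the 4 precursors. The 18 libraries fell into 3 groups of 6: spontaneously hypertensive rats treated with QDG (QDG), spontaneously hypertensive rats that received NS (SHR), and Wistar Kyoto rats (WKY), which the labels call normal. The QDG and SHR groups share the hypertensive strain, so a comparison with WKY holds strain, blood pressure and anything else given to the animals together, and these cannot be told apart. The sources used here neither spell out QDG and NS nor give dose, duration, age or sex. Whether each library came from its own animal is left unsaid by the labels, so p-values may measure only the spread between libraries.

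Each miRNA precursor folds into a hairpin whose 2 arms can each yield a mature miRNA. Bases 2 to 8 of the mature miRNA, the seed, choose most of its target messages, so miRNAs with a common seed can repress overlapping sets of messages. In lung vessels the family is known for repressing the nuclear receptor PPARγ and for being raised in pulmonary hypertension. In human endothelial cells miR-130a is known for repressing the homeobox factors GAX and HOXA5 and thereby favouring vessel growth.

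RefSeq (build GRCr8) held mature sequences for 7 of the 8 members, all but miR-301a-3p, and hairpins for the 4 precursors. They are shown because the seed separates the 3p arms, which share 1 seed, from the 5p arms. Capitals mark the seed, and sequences run 5′ to 3′.
miR-130a-3p: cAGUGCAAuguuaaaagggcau
miR-130b-3p: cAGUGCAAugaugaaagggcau
miR-301b-3p: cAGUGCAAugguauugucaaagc
miR-130a-5p: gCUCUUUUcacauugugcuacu
miR-130b-5p: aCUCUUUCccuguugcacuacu
miR-301a-5p: gCUCUGACuuuauugcacuac
miR-301b-5p: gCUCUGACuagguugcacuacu

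The 3 sequenced 3p arms had the seed AGUGCAA and the same first 10 bases. miR-130a-3p and miR-130b-3p were identical at 20 of 22 positions, and counted from the 5′ end of miR-130a-3p the differences were U11A and A13G. miR-301b-3p differed from miR-130a-3p at 9 of 22 positions, all past the shared start. No other rat mature miRNA among the 724 entries had this seed. miR-301a-3p was not among these entries, but the miR-301a hairpin also holds the letters AGUGCAA, past its 5p arm. The 5p arms carried other seeds: miR-301a-5p and miR-301b-5p shared CUCUGAC, while the seeds CUCUUUU of miR-130a-5p and CUCUUUC of miR-130b-5p were each found in no other entry. The sources used here do not tell how a read that fits more than 1 member was assigned, so the split of reads between miR-130a-3p and miR-130b-3p is uncertain.

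The 4 hairpins lie at 3 places in GRCr8. The miR-130a hairpin is at chr3:90229228-90229315 on the minus strand and lies within the span of no other gene in the RefSeq table. The miR-301a hairpin, at chr10:72422599-72422698 on the plus strand, lies within the spans of Ska2, a gene of the mitotic spindle, and Prr11. miR-301b, at chr11:97384033-97384110, and miR-130b, at chr11:97384380-97384461, lie 269 bases apart on the plus strand inside 1 protein-coding gene, 2610318N02Rikl. The hairpins of miR-130a and miR-130b are shown with their mature arms in capitals, the 5p arm first, because their reads, as listed, lay mostly on opposite arms in these hearts.
miR-130a hairpin: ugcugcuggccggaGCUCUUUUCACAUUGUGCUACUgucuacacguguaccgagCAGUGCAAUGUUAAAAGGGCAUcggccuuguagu
miR-130b hairpin: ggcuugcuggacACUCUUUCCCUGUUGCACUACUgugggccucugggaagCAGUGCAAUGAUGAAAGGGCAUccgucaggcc

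Levels are given as the authors' normalised read counts, taken here as reads scaled to 1000000 reads of a library-specific divisor (RPM). Neither the scale nor the divisor is stated, and the divisor was inferred by taking each library's smallest nonzero value as 1 read. So inferred, the divisor was 4449279 to 7403775 reads, smaller than the miRNA reads of its library, and what it counts is not stated. The listed values therefore sum to more than 1000000 in each library, and a value in RPM is not a share of the miRNA reads. On this basis the libraries held 6420666 to 10169581 miRNA reads, and 1 read was worth 0.135 to 0.225 RPM. The heart muscle miRNAs miR-1, miR-133, miR-208 and miR-499 were present with 8 of 8 listed members and a summed level of 492525 to 625613 RPM, and none of them was at 0 in all libraries. RPM counts reads without a length correction, and mature miRNAs are of nearly equal length, but adapters join to miRNAs with unequal ease, so ranks between miRNAs describe reads rather than molecules.

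The family was carried by a single arm. miR-130a-3p averaged 134 RPM over the 18 libraries, rank 134 of 599, and gave 13233 of the family's reads. It made up 88.4 ± 0.915% of the summed level of the 8 rows in QDG, 88.9 ± 1.04% in SHR and 84.2 ± 1.52% in WKY (SD, n = 6 each). The next rows, miR-301a-3p and miR-301a-5p, averaged 7.33 and 6.53 RPM over all libraries, and miR-130a-5p and miR-130b-5p averaged 2.64 and 2.34 RPM. The other 3 rows were near the detection limit: miR-130b-3p had 52 reads in all, miR-301b-3p 4 and miR-301b-5p 2.

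The arm with more listed reads differed between the precursors. Of miR-130a reads, 98.1% came from the 3p arm over all libraries (13233 of 13494 reads, exact 95% binomial interval 97.8 to 98.3%). Of miR-130b reads only 18.4% did (52 of 282 reads, 14.1 to 23.5%). That share depends on how reads were split between miR-130b-3p and the far more frequent miR-130a-3p, which is uncertain, so the direction of the miR-130b balance is uncertain too. miR-301a had nearly equal arms, with 52.7% from the 3p arm (715 of 1357 reads, 49.99 to 55.4%). These intervals cover counting error only, since amplified reads are not independent molecules.

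By library, the 3p share of miR-130a was 98.4 ± 0.650% in QDG, 98.1 ± 0.608% in SHR and 97.6 ± 0.477% in WKY (SD, n = 6 each). The 3p share of miR-301a was 52.8 ± 7.08% in QDG, 57.0 ± 6.60% in SHR and 49.1 ± 8.52% in WKY. For miR-130b the share was 13.95 ± 10.7% in QDG, 26.4 ± 14.8% in SHR and 14.5 ± 9.59% in WKY. The group ranges of each of these shares overlapped and were not tested. For miR-130b they rest on 88 reads in QDG, 83 in SHR and 111 in WKY over both arms.

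**Figure D1:**
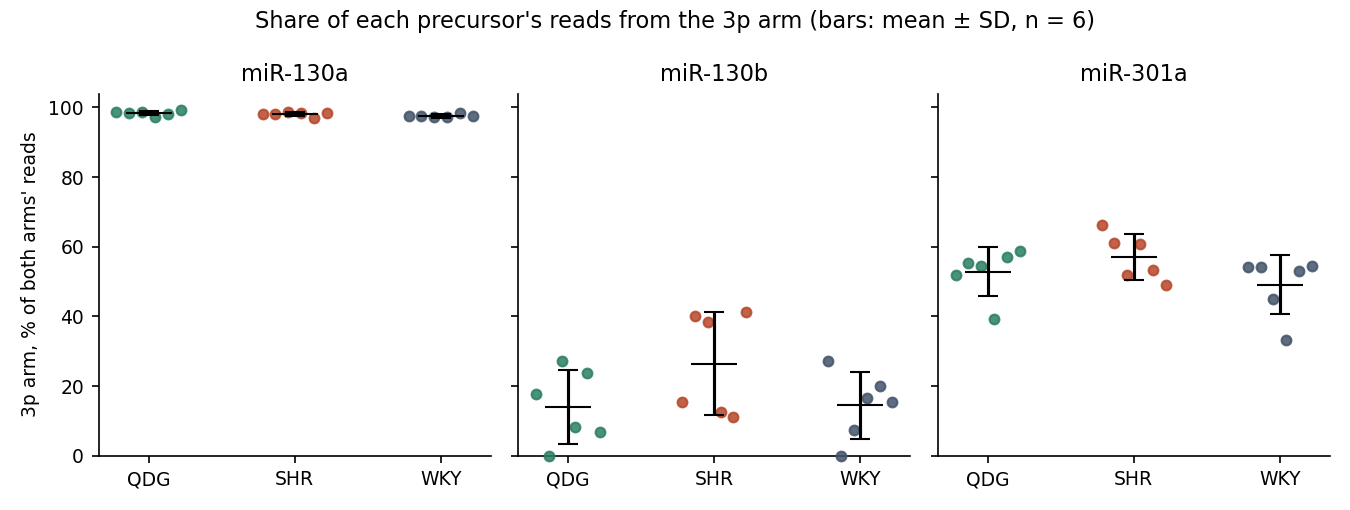
Share of each precursor's reads that came from its 3p arm, in percent of both arms, for each library of the QDG, SHR and WKY groups (points, with mean ± SD, n = 6). miR-130a lies at 97.0 to 99.2%, miR-301a at 33.3 to 66.1% and miR-130b at 0 to 41.2% over the 18 libraries.

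The first comparison sets the hypertensive strain against the normal one. In SHR hearts miR-130a-3p, the family's abundant arm, rose against WKY, miR-130b-5p fell, and the other 3 tested rows did not pass the test. These 2 of 5 tested members stand beside 23.2% of all 410 tested miRNAs called in this comparison, whose median log2 difference was -0.07. miR-130a-3p had a lowest, median and highest level of 133.8, 144.1 and 153.7 RPM in SHR and of 83.9, 120.2 and 127.7 RPM in WKY. Each SHR library lay above each WKY library. The means were 144 ± 6.65 RPM in SHR and 114 ± 17.2 RPM in WKY (SD, n = 6 each), a ratio of 1.26, and the log2 difference was 0.35 ± 0.10 (SE, 95% interval 0.13 to 0.56, limma adjusted p = 0.0158). Of the 410 miRNAs tested, 8.05% were called higher in SHR and 3.41% lay above WKY without overlap. In whole tissue such as this, a change in the number of cells of a type and a change in RNA per cell cannot be told apart.

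The spread of miR-130a-3p was wider in WKY than in SHR. WKY replicate 1 was the lowest of all 18 libraries at 83.9 RPM and WKY replicate 3 the next at 102.6 RPM. Without WKY replicate 1 the log2 difference was 0.27 (limma adjusted p = 0.0287), and with any 1 library left out it lay between 0.27 and 0.39, with an adjusted p of 0.0112 to 0.0370. Under the 4 other scalings the difference was 0.40 to 0.45. The SD between SHR libraries, 6.65 RPM, was close to the 5.07 RPM that read counting alone gives, while the WKY SD of 17.2 RPM stood against 4.67 RPM from counting.

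miR-130b-5p, the arm of miR-130b with more listed reads, had a lowest, median and highest level of 1.35, 1.56 and 2.47 RPM in SHR and of 2.38, 2.82 and 4.12 RPM in WKY. The groups overlapped, with 2 of 6 SHR libraries inside the WKY range, and 6 of 6 SHR libraries lay below the WKY mean. The means were 1.79 ± 0.509 RPM in SHR and 2.95 ± 0.640 RPM in WKY (SD, n = 6 each), a ratio of 0.606, with a log2 difference of -0.51 ± 0.16 (SE, 95% interval -0.83 to -0.18, limma adjusted p = 0.0202). Of all tested miRNAs 15.1% were called lower.

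This second call rests on few reads. miR-130b-5p had 8 to 14 reads per SHR library and 11 to 25 per WKY library, and the SD between libraries did not exceed that of read counting, at 0.509 RPM against 0.566 RPM in SHR and 0.640 RPM against 0.752 RPM in WKY. Without WKY replicate 3, its highest library, the log2 difference was -0.43 and the call was lost (adjusted p = 0.0555). With DESeq2 on the recovered reads it was also lost (log2 -0.68, adjusted p = 0.0772), while edgeR on the same reads kept it (log2 -0.64, adjusted p = 0.0459).

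Among the rows not called, miR-301a-5p had a lowest, median and highest level of 3.77, 5.62 and 7.07 RPM in SHR and of 4.27, 8.04 and 9.53 RPM in WKY. All 6 SHR libraries lay below the WKY mean but 5 of 6 lay inside the WKY range. Its log2 difference was -0.39 ± 0.16 (SE, 95% interval -0.73 to -0.06, limma adjusted p = 0.0823, unadjusted p = 0.0221), where 34.4% of all tested miRNAs had an unadjusted p under 0.05. It passed without WKY replicate 1, the lowest WKY library (-0.53, adjusted p = 0.00955), or without SHR replicate 3, the highest SHR library (-0.46, adjusted p = 0.0442).

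The opposite arm of that precursor, miR-301a-3p, averaged 7.28 ± 1.30 RPM in SHR and 7.34 ± 2.04 RPM in WKY (SD, n = 6 each), with a log2 difference of 0.01 and a 95% interval of -0.34 to 0.36 (limma adjusted p = 0.962). miR-130a-5p, the minor arm of miR-130a, averaged 2.74 ± 0.876 RPM in SHR and 2.80 ± 0.597 RPM in WKY, with -0.04 and an interval of -0.41 to 0.33 (limma adjusted p = 0.895). For both arms the group ranges overlapped. The upper bounds of 0.36 and 0.33 lie near the difference of 0.35 seen for miR-130a-3p. The differences are of log2(RPM + 1), which shrinks changes of these scarcer arms more than that of miR-130a-3p. A change of similar size in these arms could therefore not be resolved, nor a smaller one.

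**Figure D2:**
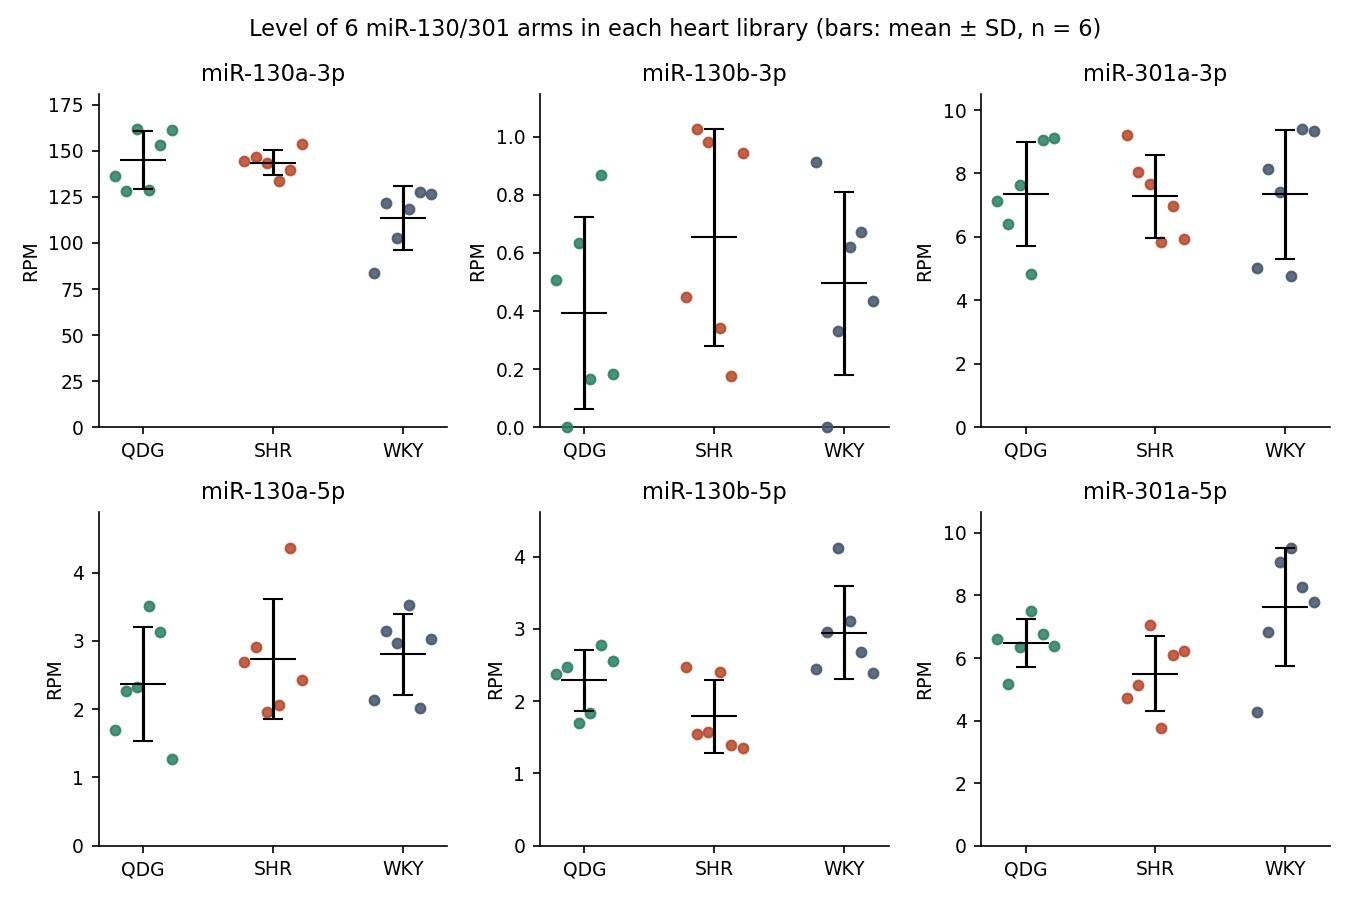
Level in RPM of 6 arms in each library of the QDG, SHR and WKY groups (points, with mean ± SD, n = 6), on axes that start at 0 and differ in height. miR-130a-3p lies at 128.4 RPM or more in QDG and SHR libraries and at 127.7 RPM or less in WKY libraries, while the groups overlap for the other 5 arms.

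The 3 scarce rows were below the filter on low values, at least 1 RPM in at least 6 libraries, and were not tested with the rest. miR-130b-3p, which carries the family seed, had 23 reads over the SHR libraries, 1 to 7 in each, and 16 reads over the WKY libraries, 0 to 6 in each. miR-301b-3p had 0 reads over the SHR libraries and 3 over the WKY libraries. miR-301b-5p had 0 reads in both groups. A library with 0 reads allows a level of up to 0.405 to 0.674 RPM, depending on its depth, so differences of the miR-301b rows were not detectable at this depth. miR-130b-3p had reads in 16 of 18 libraries, and in limma without the filter its log2 difference between SHR and WKY was 0.14 (adjusted p = 0.674).

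The next comparison asks whether QDG treatment changed the family within the hypertensive strain. None of the 5 tested members passed the test between QDG and SHR, nor did any of the 410 tested miRNAs: limma called 0%, edgeR 0 and DESeq2 0, with 15 miRNAs, 3.66%, at an unadjusted limma p under 0.05. miR-130a-3p had a lowest, median and highest level of 128.4, 144.7 and 161.7 RPM in QDG and of 133.8, 144.1 and 153.7 RPM in SHR. The QDG libraries reached both below and above the SHR range, with 2 of 6 inside it. The means were 145 ± 15.7 RPM in QDG and 144 ± 6.65 RPM in SHR (SD, n = 6 each). The log2 difference was 0.01 ± 0.10 with a 95% interval of -0.21 to 0.22 (limma adjusted p = 0.986). The lower bound of -0.21 is smaller in size than the 0.35 between SHR and WKY. That 0.35 has a wide interval of its own, given above, and both differences use the SHR libraries. Added together, these differences are that of QDG against WKY, 0.36 (limma adjusted p = 0.0145), given below, so a full offset was not seen. A partial offset was not resolved.

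miR-130b-5p, lower in SHR than in WKY, averaged 2.29 ± 0.427 RPM in QDG and 1.79 ± 0.509 RPM in SHR (SD, n = 6 each). Its lowest, median and highest levels were 1.70, 2.43 and 2.78 RPM in QDG and 1.35, 1.56 and 2.47 RPM in SHR, and 5 of 6 QDG libraries lay above the SHR mean. The log2 difference of 0.25 had a 95% interval of -0.08 to 0.57 (limma adjusted p = 0.983). miR-301a-5p averaged 6.47 ± 0.767 RPM in QDG and 5.50 ± 1.19 RPM in SHR, with a log2 difference of 0.21 and an interval of -0.12 to 0.55 (limma adjusted p = 0.983).

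miR-301a-3p and miR-130a-5p had log2 differences of 0.00422 and -0.16 between QDG and SHR, with intervals of -0.35 to 0.35 and -0.53 to 0.21. miR-301a-3p averaged 7.36 ± 1.63 RPM in QDG and 7.28 ± 1.30 RPM in SHR, and miR-130a-5p averaged 2.37 ± 0.840 RPM in QDG and 2.74 ± 0.876 RPM in SHR. Of the scarce rows, miR-130b-3p had 13 reads in QDG and 23 in SHR, miR-301b-3p had 1 read in QDG and 0 in SHR, and miR-301b-5p had 2 reads in QDG and 0 in SHR.

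Set against the normal strain, QDG hearts showed 1 called member of the 5 tested, beside 17.8% of all tested miRNAs. miR-130a-3p averaged 145 ± 15.7 RPM in QDG and 114 ± 17.2 RPM in WKY (SD, n = 6 each), a ratio of 1.28. The lowest QDG library, at 128.4 RPM, lay just above the highest WKY library, at 127.7 RPM. The log2 difference was 0.36 ± 0.10 (SE, 95% interval 0.14 to 0.57, limma adjusted p = 0.0145), and without any 1 library it lay between 0.27 and 0.39 with an adjusted p of at most 0.0435. Of all tested miRNAs 7.32% were called higher in QDG and 3.9% lay above WKY without overlap. This comparison and that of SHR with WKY share the WKY libraries, so the 2 differences of miR-130a-3p are not separate evidence.

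miR-130b-5p averaged 2.29 ± 0.427 RPM in QDG and 2.95 ± 0.640 RPM in WKY, with a log2 difference of -0.26 and a 95% interval of -0.59 to 0.06 (limma adjusted p = 0.271). All 6 QDG libraries lay below the WKY mean and 3 lay inside the WKY range. miR-301a-5p had 6.47 ± 0.767 RPM in QDG and 7.63 ± 1.90 RPM in WKY (log2 -0.18, limma adjusted p = 0.503), miR-130a-5p had -0.20 (limma adjusted p = 0.503) and miR-301a-3p 0.02 (limma adjusted p = 0.956). Of all tested miRNAs 10.5% were called lower in QDG and 31% had an unadjusted p under 0.05.

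**Figure D3:**
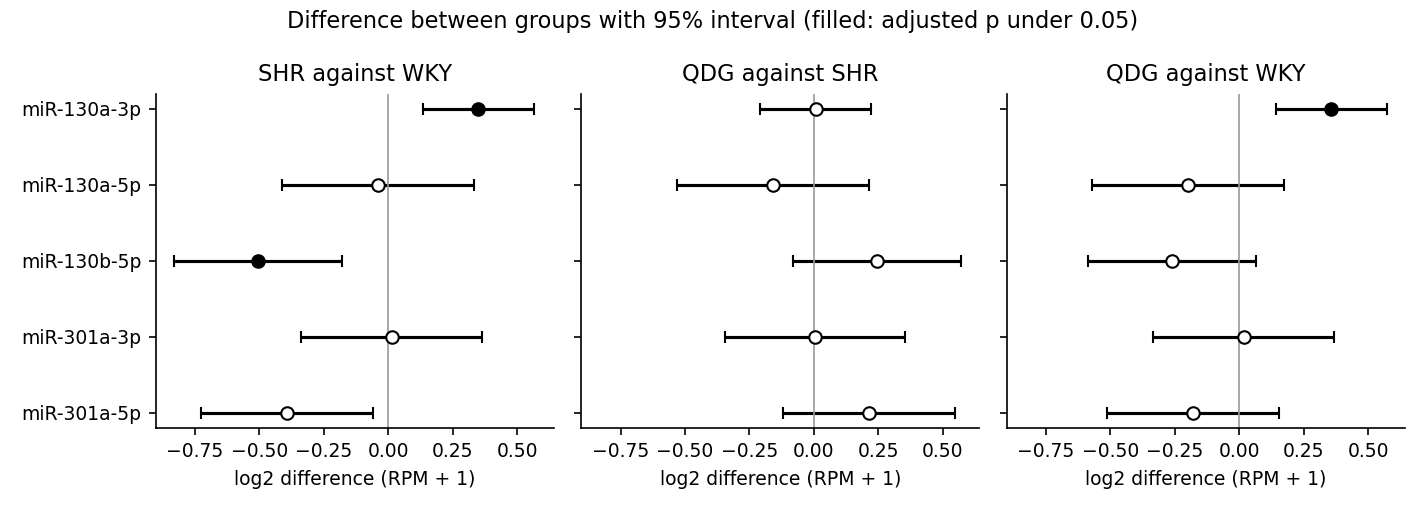
Log2 difference of RPM + 1 with its 95% interval for the 5 tested members in SHR against WKY, QDG against SHR and QDG against WKY; filled points have a limma adjusted p under 0.05. miR-130a-3p is at 0.35 and 0.36 against WKY and at 0.01 between QDG and SHR, and miR-130b-5p is at -0.51 in SHR against WKY.

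The summed level of the 4 arms named 3p, which is nearly that of miR-130a-3p, was 153 ± 17.3 RPM in QDG, 152 ± 7.21 RPM in SHR and 122 ± 18.5 RPM in WKY (SD, n = 6 each). The summed level of the 4 arms named 5p was 11.2 ± 1.26 RPM in QDG, 10.03 ± 1.20 RPM in SHR and 13.4 ± 2.70 RPM in WKY. In both groups of the hypertensive strain the mean 3p sum lay above that of WKY and the mean 5p sum below it. The ranges of the 5p sum overlapped between groups. The 3p sum was 133.7 to 170.8 RPM in QDG, 140.0 to 160.6 RPM in SHR and 89.8 to 138.0 RPM in WKY. Its QDG range thus overlapped that of WKY, and its SHR range lay above that of WKY. These sums are descriptions and were not tested.

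Other miRNAs of the heart carry nearly the same letters with the register moved by 1 base. miR-19a-3p and miR-19b-3p have the seed GUGCAAA, and miR-148a-3p, miR-148b-3p and miR-152-3p have the seed CAGUGCA. A member of each kind is shown because its seed, in capitals, contains the GUGCA that the family seed also holds.
miR-19a-3p: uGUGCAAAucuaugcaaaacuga
miR-148a-3p: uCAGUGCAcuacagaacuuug

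These 5 relatives held 21594 to 33588 RPM in sum over the libraries. None was called in limma in any of the 3 comparisons, and their median log2 difference was -0.14 in SHR against WKY, beside -0.07 over all tested miRNAs. The most abundant ones, miR-148a-3p and miR-152-3p, had log2 differences of 0.12 and -0.09 in SHR against WKY (limma adjusted p = 0.450 and 0.557). In QDG against WKY miR-148a-3p, at 0.23 (adjusted p = 0.103), passed in 4 of 31 alternative settings, with TMM or upper quartile scaling (0.32 and 0.34), with edgeR and without QDG replicate 5. In SHR against WKY miR-148b-3p, chosen here after its values were seen, had -0.28 (adjusted p = 0.105) and passed without SHR replicate 5 (-0.36, adjusted p = 0.0352).

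In lung vessels miR-204, miR-503 and the human counterpart of miR-322 have been described downstream of the family. In the heart libraries 5 of their 6 arms were tested, and in SHR against WKY 1 was higher, 1 lower and 3 not called (median log2 -0.19), beside 8.05% higher and 15.1% lower among all tested miRNAs. miR-204-5p averaged 35.2 ± 6.98 RPM in SHR and 24.6 ± 4.85 RPM in WKY (SD, n = 6 each; log2 0.50 ± 0.15 SE, limma adjusted p = 0.0134). miR-322-3p averaged 299.9 ± 18.4 RPM in SHR and 404 ± 37.3 RPM in WKY (log2 -0.43 ± 0.08, limma adjusted p = 0.000326), with no overlap between the groups, and 6.83% of all tested miRNAs lay below WKY without overlap. Both calls held in each of the 31 alternative settings. The other arm of miR-322, miR-322-5p, was not called (log2 -0.17, limma adjusted p = 0.294) and passed in none of these settings.

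None of these arms passed the test between QDG and SHR, where the median log2 difference was -0.08. In QDG against WKY miR-204-5p was higher and miR-322-3p and miR-503-5p were lower, with a median of -0.31 beside -0.06 over all tested miRNAs, of which 7.32% were called higher and 10.5% lower. miR-322-3p had -0.44 (limma adjusted p = 0.000350), again without overlap, as did 4.15% of all tested miRNAs in this direction. miR-322-5p was not called here either (-0.29, limma adjusted p = 0.0613), and it passed in 8 of 31 alternative settings. The calls of miR-204-5p (0.42, adjusted p = 0.0450) and miR-503-5p (-0.36, adjusted p = 0.0419) were weak, since they passed in 20 and 19 of 31 alternative settings. The first was lost without WKY replicate 1, 3, 4 or 6, SHR replicate 2 or QDG replicate 4, 5 or 6 (adjusted p up to 0.122), and the second without WKY replicate 2, 3, 4, 5 or 6 or QDG replicate 1, 2, 4 or 6 (adjusted p up to 0.122).

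The endothelial list gathers miRNAs described in a cell type in which miR-130a is also well described. Of 8 tested members 1 was higher and 0 lower in SHR against WKY (median log2 0.09), where 8.05% of all tested miRNAs were higher and 15.1% lower. None was called in QDG against SHR (median -0.01) or QDG against WKY (median 0.13). In SHR against WKY miR-222-3p also passed under TMM, RLE and upper quartile scaling (0.42 to 0.44), with edgeR, with DESeq2 and without WKY replicate 4. There miR-126a-3p passed under TMM. In the other direction miR-92a-3p passed as lower without WKY replicate 1, both in SHR against WKY (-0.35, adjusted p = 0.0205) and in QDG against WKY (-0.32, adjusted p = 0.0362). In QDG against WKY miR-221-3p did pass under the 4 other scalings (0.30 to 0.40), with edgeR, with DESeq2 and without WKY replicate 4 or SHR replicate 5. There miR-126a-3p passed under TMM and upper quartile scaling. The called one was miR-221-3p, known to restrain vessel growth in human endothelial cells, at 469 ± 95.0 RPM in SHR and 363 ± 50.6 RPM in WKY (log2 0.36 ± 0.12, limma adjusted p = 0.0246), whose call was lost without WKY replicate 1, WKY replicate 6 or SHR replicate 5 (adjusted p = 0.0609, 0.0599 and 0.0881). The summed endothelial level was 130826 to 141814 RPM in QDG, 124205 to 141092 RPM in SHR and 101477 to 138040 RPM in WKY, and no listed member was at 0 in all libraries. Most of that sum was miR-126a-3p, which averaged 118012 RPM in QDG, 116252 RPM in SHR and 109616 RPM in WKY. The other arm, miR-126a-5p, went the other way, with 2933 RPM in QDG, 3055 RPM in SHR and 3351 RPM in WKY. Its log2 difference from WKY was -0.13 in SHR and -0.21 in QDG (limma adjusted p = 0.434 and 0.196). WKY replicate 1, the library lowest in miR-130a-3p, was also the lowest of its group in the endothelial sum and the fibroblast sum (41874 RPM). It was lowest too in the red cell sum (3760.02 RPM) and in the sum of the lung vessel arms (774 RPM). In the smooth muscle sum (54269 RPM) and the leukocyte sum (7068 RPM) it was not the lowest. It was the highest of its group in the heart muscle sum (625613 RPM) and in the sum of the seed relatives (26571 RPM). Without that library the miR-130a-3p difference was 0.27, as given above. The part of endothelial RNA in the miR-130a-3p difference was not tested.

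For the other cell types, SHR against WKY had 2 of 8 heart muscle miRNAs higher, 1 of 7 fibroblast miRNAs higher and 1 lower, 2 of 7 leukocyte miRNAs higher, and 0 of 4 smooth muscle and 0 of 4 red cell miRNAs called, beside 8.05% higher and 15.1% lower among all tested miRNAs. In QDG against WKY 2 heart muscle and 3 leukocyte miRNAs were higher, 1 fibroblast miRNA was higher and 1 lower, and none was called for smooth muscle or red cells, beside 7.32% higher and 10.5% lower among all tested miRNAs. The summed smooth muscle level was 53819 to 75150 RPM in QDG, 44421 to 65776 RPM in SHR and 50015 to 75140 RPM in WKY. The summed fibroblast level was 45847 to 54780 RPM in QDG, 44051 to 67200 RPM in SHR and 41874 to 50528 RPM in WKY, and the summed leukocyte level 5759 to 8912 RPM in QDG, 6747 to 8022 RPM in SHR and 7042 to 10083 RPM in WKY. Their part in the miR-130a-3p difference was not tested.

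The miRNAs most like miR-130a-3p across the 18 libraries were found from the root mean square difference in log2(RPM + 1), each miRNA centred on its own mean, among 248 other miRNAs of at least 10 RPM. The nearest was miR-425-5p, with a difference of 0.09, beside a median of 0.30 over the 248. It was followed by miR-378a-5p (0.13), miR-29a-5p (0.14), miR-15b-5p (0.14) and miR-32-5p (0.14). All 5 had their lowest level of the 18 libraries in WKY replicate 1, as did miR-130a-3p.

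Of these 5, limma called miR-378a-5p in SHR against WKY (log2 0.37, adjusted p = 0.0204), with 503 ± 35.9 RPM in SHR and 394 ± 70.1 RPM in WKY (SD, n = 6 each), and the call was lost without WKY replicate 1 (0.27, adjusted p = 0.0509). In QDG against WKY miR-378a-5p was also called (0.41, limma adjusted p = 0.0108) and passed in 31 of 31 alternative settings, while limma called none of the others there. In SHR against WKY miR-425-5p had 0.26 (adjusted p = 0.0808) and passed under the 4 other scalings, with edgeR, with DESeq2 and without WKY replicate 5. miR-15b-5p had 0.24 (adjusted p = 0.117) and also passed under the 4 other scalings, with edgeR and with DESeq2. miR-29a-5p had 0.20 (adjusted p = 0.270) and passed under TMM and upper quartile scaling and with edgeR. miR-32-5p had 0.11 (adjusted p = 0.532). The likeness uses the same libraries as the comparisons and is a description.

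**Figure D4:**
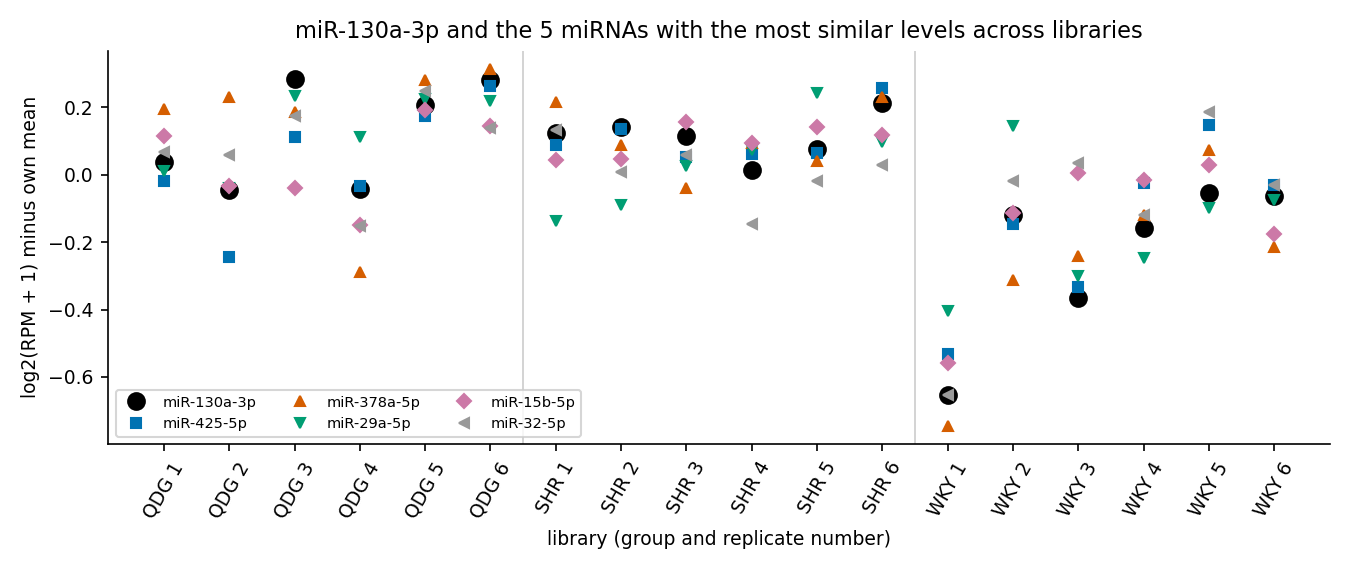
Log2(RPM + 1) minus each miRNA's own mean, for miR-130a-3p and the 5 miRNAs nearest to it, in each of the 18 libraries in the order QDG, SHR, WKY. All 6 miRNAs are lowest in WKY replicate 1.

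**Figure D5:**
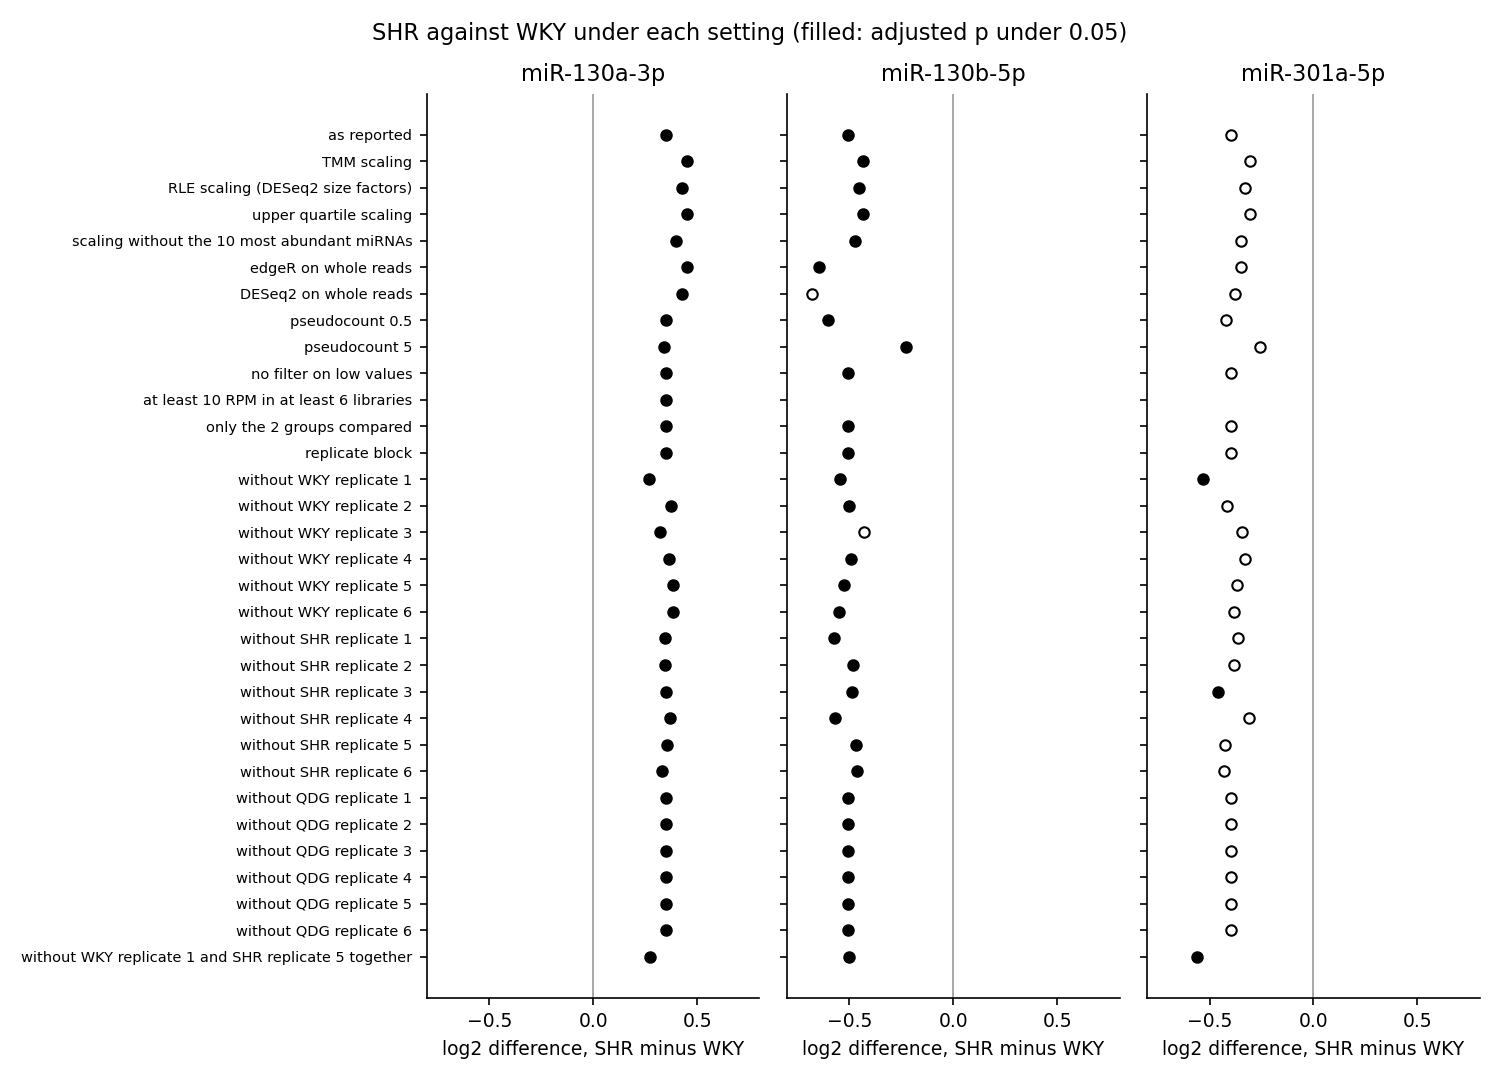
Log2 difference between SHR and WKY for 3 arms as reported and under each alternative setting, with filled points for an adjusted p under 0.05. miR-130a-3p stays between 0.27 and 0.45 and is filled throughout, miR-130b-5p is open with DESeq2 and without WKY replicate 3, and miR-301a-5p is filled without WKY replicate 1, without SHR replicate 3 and without WKY replicate 1 and SHR replicate 5 together.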

How the data were processed

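Per the labels' protocols, NEBNext small RNA libraries were prepared from 1 µg of heart RNA. FastQC, TopHat2 and limma are named without a version in the submitters' processing notes. Genome build and miRNA annotation: not given in the sources used here. The deposited signal of each mature miRNA is a normalised read count, per the file headers. All 10782 values, of 10782, were whole reads to within 0.01 once divided by their library's step.

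The filter asked for 1 RPM or more in 6 or more libraries and left 410 of 599 miRNAs, 5 of the 8 members among them. limma (3.58.1, R 4.3.3) was fitted to log2(RPM + 1) of all 18 libraries, with trend and robust moderation and Benjamini-Hochberg adjustment over the 410, at a threshold of 0.05. Fold changes therefore understate those of scarce miRNAs. edgeR (4.0.16) and DESeq2 (1.42.0) were run on the recovered reads as alternatives and called 90 and 91 miRNAs in SHR against WKY, 0 and 0 in QDG against SHR, and 81 and 87 in QDG against WKY. Other scalings, pseudocounts, filters, a replicate block and leaving out each library in turn were also tried. Groups came from the library titles.

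The members and the miRNA lists were chosen with earlier results of these data known. The rule named every member, the 5 miRNAs most like each member of at least 10 RPM, and called members of the lists of seed relatives, lung vessel miRNAs and endothelial miRNAs. The further cell type lists give counts and summed levels, without values of single miRNAs.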

Additional observations from a re-analysis of the deposited data

Results flagged for a closer look

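Of 21 member and group pairs with any spread, 1 had a library far from the other 5. miR-301b-3p in QDG had its highest value, 0.182 RPM, in replicate 6 and 0 in the other 5 libraries. That value is 1 read. A group with reads in only 1 library is always flagged by this rule, so the chance rate of about 1 in 20 does not apply to it.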

How the results depend on the processing

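The count of called members in SHR against WKY was 2 as reported, 1 with DESeq2, 1 with a filter of at least 10 RPM in at least 6 libraries (which left only miR-130a-3p to test), and 1 to 3 with 1 library left out. It was 0 in QDG against SHR and 1 in QDG against WKY in each of the alternatives. miR-130a-3p passed against WKY in 31 of 31 alternatives for SHR and in 31 of 31 for QDG. Whether the replicate numbers pair the libraries is not stated, and these values cannot settle it. The deviations of same-numbered libraries correlated at -0.17 to 0.23 in SHR against WKY. They correlated at -0.13 to 0.12 in QDG against SHR and at 0.0041 to 0.20 in QDG against WKY. The correlation was over 0.1 in 7 of 18 pairs, and 1 of 18 libraries correlated best with its own number. With the replicate block 2, 0 and 1 members were called in the 3 comparisons, in the order above.

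Signs changed only for differences near 0 that passed the test in none of the settings. In SHR against WKY miR-130a-5p had 0.034 with TMM, 0.015 with RLE, 0.034 with upper quartile scaling, 0.064 with edgeR, 0.040 with DESeq2 and -0.15 to 0.022 with 1 library left out. miR-301a-3p had -0.086 to 0.084 with 1 library left out and -0.066 without WKY replicate 1 and SHR replicate 5 together. In QDG against SHR miR-130a-3p had -0.011 with TMM, -0.025 with RLE, -0.043 without the 10 most abundant miRNAs in the scaling, -0.011 with edgeR, -0.025 with DESeq2, -0.026 to 0.040 with 1 library left out and -0.000551 without those 2 libraries. miR-301a-3p there had -0.013, -0.025 and -0.040 under the same 3 scalings, -0.0096 with DESeq2, -0.056 to 0.10 with 1 library left out and -0.00318 without the 2. In QDG against WKY miR-301a-3p had -0.082 to 0.12 with 1 library left out and -0.069 without the 2. The cause of these shifts was not tested. Read depth limits the rows other than miR-130a-3p: the next most frequent, miR-301a-3p, had 23 to 52 reads per library.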
